A study of Mus musculus with 11 samples.

Results

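The genes described here encode the kainate-type glutamate receptor subunits Grik1, Grik2, Grik3, Grik4 and Grik5, their auxiliary proteins Neto1 and Neto2, and the delta-type receptor subunit Grid1. These 8 genes were taken by name from the 53465 genes of the count tables. The RNA came from CRF1+ neurons of the medial prefrontal cortex (mPFC), sorted by fluorescence from adult male CRF1:GFP mice, in which a green fluorescent protein reporter marks cells that express corticotropin-releasing factor receptor 1. Each of the 11 libraries came from 1 mouse. The 6 naïve mice breathed air and received pyrazole, an inhibitor of alcohol dehydrogenase, in saline. The 5 withdrawn mice received ethanol with pyrazole and chronic intermittent ethanol vapor for several weeks, followed by several days of abstinence. Both groups therefore carried the reporter and received pyrazole. The p-values judge the difference between the groups against the spread between mice, with 1 library per mouse. Withdrawn mice 3, 4 and 5 were grouped by their treatment label, while their source label reads as control, and the submitters' design text gives the sizes of the control and ethanol groups the other way round, as 5 and 6.

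Kainate receptors are tetrameric cation channels opened by glutamate. Grik1, Grik2 and Grik3 (GluK1, GluK2 and GluK3) can form channels without the other subunits, whereas Grik4 and Grik5 (GluK4 and GluK5) bind agonist with high affinity but need a partner from the first set to reach the surface as working receptors. Neto1 and Neto2 are transmembrane proteins that slow the gating of kainate receptors. Grid1 (GluD1) resembles an ionotropic receptor but is known mainly as a synaptic organizer that binds cerebellins, which in turn bind presynaptic neurexins. In cortex, kainate receptors occur both on pyramidal cells and on interneurons, before and after the synapse.

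Counts on genes ranged from 9970161 to 17855514 in naïve and from 7351567 to 22244869 in withdrawn mice. Crhr1, the gene of the receptor used for sorting, was present at 42.2 to 136 CPM (counts scaled to the size of the library) in all 11 mice. Summed markers of glutamatergic neurons reached 1851 to 3328 CPM in naïve and 1479 to 2943 CPM in withdrawn mice, and those of GABAergic neurons 85.1 to 928 and 32.1 to 730 CPM. The GABAergic sum includes Sst, at 0.0677 to 699 CPM in naïve and 0 to 32.6 CPM in withdrawn mice. Sst had a log2 fold change of -5.33 (adjusted p = 0.545, edgeR). Of the 8 GABAergic markers, 6 had a fold change above 0 and 2 below. The libraries were uneven: naïve mouse 5 had 15585 genes detected and 5.77% of its reads outside exons, against 31830 genes and 48.1% in withdrawn mouse 4. Fibroblast markers summed to 0.0677 to 62.8 CPM in naïve mice and 11.4 to 1114 CPM in withdrawn mice, and 4 of the 4 tested markers on that list had an unadjusted p under 0.05. In bulk RNA, fewer cells of a type and less RNA per cell cannot be told apart.

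All 8 genes were detected and passed the filter on low counts, and none passed the test between the groups. Of 17093 genes tested with edgeR, 1 passed both an adjusted p of 0.05 and a log2 fold change of 0.6, which is 0.00585%, and 0 of the 8 receptor and Neto genes did. At an unadjusted p under 0.05 the share over all genes was 7.22%, and again 0 of the 8 genes passed. DESeq2 called 1.66% of 21849 genes and 0 of these 8. Naïve and withdrawn values overlapped for each of the 8 genes, where 0.948% of all tested genes had groups without overlap. The fold changes were above 0 for 3 genes and below 0 for 5, with a median log2 fold change of -0.12, beside a median of 0.02 over all tested genes.

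**Figure D1:**
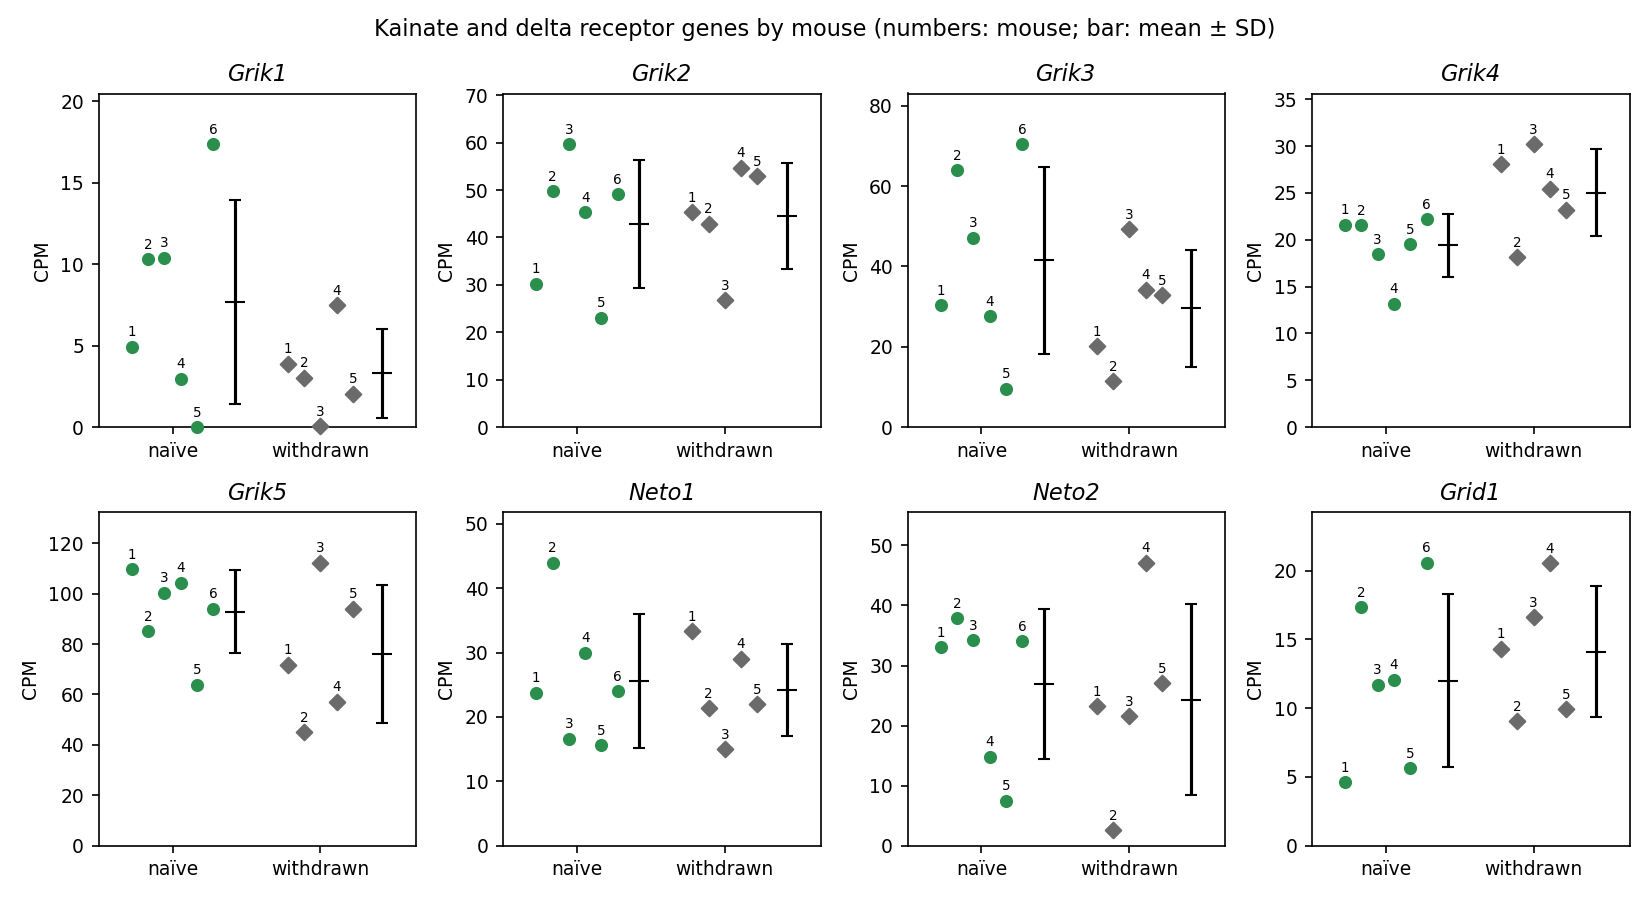
Normalized level in CPM (y axis, starting at 0, scaled separately for each gene) of the 8 genes in 6 naïve mice (green circles) and 5 withdrawn mice (grey diamonds), with the mouse number above each point and the mean ± SD of each group as a black bar. For every gene the groups overlap. Grik4 comes nearest to a separation, with 4 of the 5 withdrawn mice above the highest naïve mouse.

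Per length of exon, Grik5 stood above all the others. On the scale of CPM per kilobase (kb) of exon, the naïve mean of Grik5 was 18.0 ± 3.21 (SD, n = 6) and the withdrawn mean 14.7 ± 5.27 (SD, n = 5), and the naïve mean placed it above 81.3% of tested genes. Grik5 was higher than the next gene in the order, Grik3, in 11 of 11 mice. The following 5 genes formed a group with close levels. Their naïve means were 4.63 ± 2.59 for Grik3, 4.39 ± 2.04 for Neto2, 3.26 ± 0.566 for Grik4, 3.23 ± 1.02 for Grik2 and 3.07 ± 1.25 for Neto1 (SD, n = 6), all in CPM per kb. No order among these 5 genes could be read from neighbours, since each neighbouring pair was reversed in at least 1 naïve mouse and the mean differences, 0.021 to 1.13 CPM per kb, were smaller than the SD of those differences.

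Grid1 and Grik1 had the lowest naïve means, and of these Grik1 was set apart from its neighbour while Grid1 was not. Grid1 averaged 2.01 ± 1.05 CPM per kb in naïve and 2.36 ± 0.799 in withdrawn mice, and was below Neto1 in 5 of 6 naïve and 4 of 5 withdrawn mice, by a naïve mean of 1.06 CPM per kb with an SD of 1.16. Grik1 averaged 1.14 ± 0.933 CPM per kb in naïve and 0.491 ± 0.409 in withdrawn mice, above 27.5% of tested genes by its naïve mean. Grik1 was below Grid1 in each of the 11 mice. The position of these last 2 genes depended on the length used: per kb of the longest annotated transcript, Grik1 and Grid1 both came to 2.10 CPM per kb in naïve mice, while Grik5 stayed first at 22.9.

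**Figure D2:**
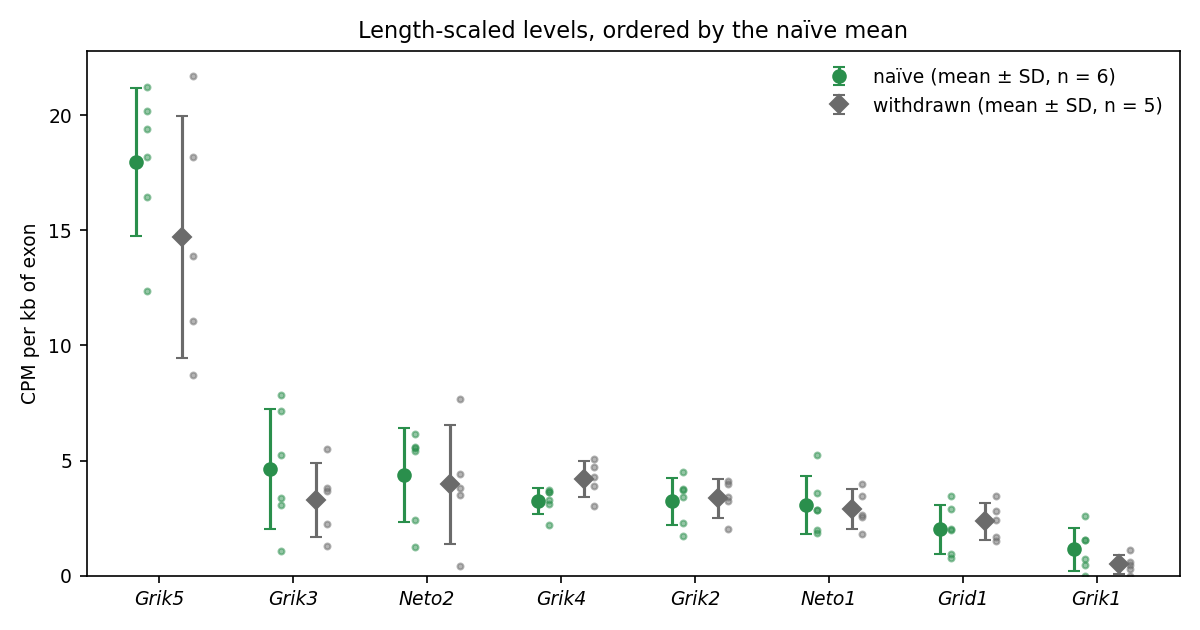
Level in CPM per kb of exon (y axis, linear, from 0) of the 8 genes in the order of their naïve means, as mean ± SD for naïve (green circles, n = 6) and withdrawn mice (grey diamonds, n = 5), with small dots for single mice. Grik5 stands apart at 18.0 and 14.7 CPM per kb, and Grik1 is lowest at 1.14 and 0.491.

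Among the subunits that form channels without a partner from the high-affinity pair, Grik1 (ENSMUSG00000022935, chr16:87895900-88290265 on the minus strand of GRCm38) was the sparsest and the most variable. Naïve mice ran from 0 through a median of 7.63 to 17.4 CPM, and withdrawn mice 1 to 5 held 3.89, 3.02, 0.0467, 7.50 and 2.05 CPM. All 5 withdrawn mice lay below the naïve median, yet all 5 also lay within the naïve range. The fitted log2 fold change was -1.22 with a standard error of 1.12 (95% interval -3.64 to 1.19, adjusted p = 0.891 with edgeR). An exact permutation test over the 462 ways to split the mice gave a two-sided p of 0.485, where the smallest possible p is 0.002165.

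The lowest Grik1 values rest on few reads, while naïve mouse 6 had 281 reads. Naïve mouse 5 had 0 reads on Grik1, which allows a level of up to 0.203 CPM (3 counts, counting error only), and withdrawn mouse 3 had 1 read. The within-group SD of Grik1 was 2.32 on the log2 scale, larger than that of 96.5% of tested genes. GluK1 is known from cortical interneurons, and both mice with 1 read or fewer were the lowest of all 11 for Gad2, an enzyme that makes GABA. Gad2 stood at 11.9 CPM in naïve mouse 5 and 7.52 CPM in withdrawn mouse 3, against 13.7 CPM in naïve mouse 4, where Grik1 was at 2.97 CPM, and 24.1 to 130 CPM in the other 8 mice. The sum of the 8 GABAergic markers was also lowest in those 2 mice, at 85.1 and 32.1 CPM, with none of the 8 genes at 0 in every mouse. Single markers did not all follow, and Gad2 was singled out after the values were seen. In naïve mouse 5, Gad1 was at 42.6 CPM, above the 33.3 CPM of naïve mouse 4. Vip was at 18.8 CPM there, above the 15.6 CPM of withdrawn mouse 4, and Adarb2 at 11.9 CPM, above the 2.79 CPM of naïve mouse 1. Grik1 did not follow the order of Gad2 in the other mice. Withdrawn mouse 2 had the most Gad2, 130 CPM, with 3.02 CPM of Grik1. Withdrawn mouse 4 had 24.1 CPM of Gad2 with 7.50 CPM of Grik1. Sst, also on that list, was at 23.3 to 699 CPM in naïve mice 1, 2, 3 and 6 and withdrawn mouse 4. These mice had the highest Grik1, 4.94 to 17.4 CPM. In the remaining mice Sst was at most 0.175 CPM and Grik1 at most 3.89 CPM. Among the mice with Sst the order differed, since naïve mouse 1 had the most Sst, 699 CPM, with 4.94 CPM of Grik1. Sst too was singled out after the values were seen. The part of these markers in the Grik1 values was not tested.

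Grik2 (ENSMUSG00000056073, chr10:49094833-49788766, minus strand), the subunit best known from principal neurons, had almost the same mean in both groups, 42.8 ± 13.6 CPM in naïve (SD, n = 6) and 44.5 ± 11.1 CPM in withdrawn mice (SD, n = 5). Naïve mice ran from 23.1 through 47.2 to 59.6 CPM, and withdrawn mice 1 to 5 held 45.3, 42.9, 26.7, 54.7 and 52.9 CPM. Each withdrawn mouse fell within the naïve range. The log2 fold change of 0.05 had a 95% interval of -0.53 to 0.64, that is, 0.692-fold to 1.56-fold (SE 0.27, adjusted p = 0.984, edgeR), and its sign turned under 4 of the 11 alternative fits and when any of 4 single mice was left out.

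Grik3 (ENSMUSG00000001985, chr4:125490700-125714173, plus strand) encodes the kainate subunit with the lowest sensitivity to glutamate. It ran from 9.55 through 38.8 to 70.4 CPM in naïve mice, and withdrawn mice 1 to 5 held 20.2, 11.4, 49.3, 34.2 and 32.8 CPM. The withdrawn mice were again all inside the naïve range, with 1 of 5 above the naïve median. Its log2 fold change was -0.49 (SE 0.47, 95% interval -1.49 to 0.51, adjusted p = 0.896, edgeR; exact permutation p = 0.517). The interval runs from 0.356-fold to 1.43-fold. Without the 3 mice whose labels disagree, the log2 fold change of Grik3 was -1.43 (SE 0.67, adjusted p = 0.789, edgeR). That fit keeps only withdrawn mice 1 and 2, and mouse 2 was the lowest of its group for Grik3. Grik3 was also uneven within groups, with an SD of 0.95 on the log2 scale beside a median of 0.685 over all tested genes.

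The high-affinity subunits had fold changes of opposite sign, and neither passed the test. Grik4 (ENSMUSG00000032017, chr9:42518135-42944493, minus strand) ran from 13.2 through 20.5 to 22.2 CPM in naïve mice, and withdrawn mice 1 to 5 held 28.1, 18.1, 30.2, 25.5 and 23.2 CPM. Withdrawn mouse 2 lay inside the naïve range and the other 4 lay above every naïve mouse. The mean was 19.4 ± 3.38 CPM in naïve mice (SD, n = 6) and 25.0 ± 4.66 CPM in withdrawn mice (SD, n = 5). The log2 fold change was 0.37 (SE 0.26, 95% interval -0.19 to 0.92, adjusted p = 0.845, edgeR), and DESeq2 gave an adjusted p of 0.49985. The exact permutation p was 0.0693, the smallest of the 8 genes, before any adjustment for the 8 genes examined.

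Grik4 was the steadiest of the 8 genes within groups. Its within-group SD was 0.28 on the log2 scale, and 8.06% of tested genes had a smaller one. Withdrawn mouse 2 was also the withdrawn mouse with the lowest sum of fibroblast markers, 11.4 CPM, while the other 4 had 1114, 539, 703 and 176 CPM in the order of mice 1, 3, 4 and 5. The naïve mice did not follow that order. Naïve mice 3 and 4 had the highest naïve sums, 62.8 and 43.8 CPM, and the lowest Grik4, 18.5 and 13.2 CPM. The part of fibroblast RNA in the Grik4 values was not tested. Without the 3 mice whose labels disagree, the log2 fold change of Grik4 was 0.21, and over all alternative fits it lay between 0.21 and 0.51.

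Grik5 (ENSMUSG00000003378, chr7:25009849-25072346, minus strand), the high-affinity subunit most often paired with GluK2 in forebrain, ran from 63.9 through 97.1 to 110 CPM in naïve mice. Withdrawn mice 1 to 5 held 71.7, 45.1, 112, 57.0 and 94.0 CPM. Withdrawn mice 2 and 4 lay below every naïve mouse and withdrawn mouse 3 lay above every one. The log2 fold change was -0.29 (SE 0.23, 95% interval -0.79 to 0.22, adjusted p = 0.868, edgeR; exact permutation p = 0.199). The 2 low mice were those with the largest share of reads outside exons, 39.6% and 48.1%, and withdrawn mouse 3 had the smallest share in its group, 13.3%. The naïve mice did not follow that order: naïve mouse 5, lowest for Grik5, had the smallest share of all 11, 5.77%, and naïve mouse 3, with the largest naïve share of 31.5%, held 100.3 CPM. With that share as a covariate, the log2 fold change of Grik5 was -0.21. Without the 3 mice whose labels disagree, which leaves withdrawn mice 1 and 2, it was -0.71.

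Read as composition, Grik5 made up most of the kainate receptor RNA in both groups. Of the summed Grik1 to Grik5 level in CPM per kb, Grik5 held 60.4% ± 8.66 in naïve mice (SD, n = 6) and 55.4% ± 7.10 in withdrawn mice (SD, n = 5). Grik4 held 11.2% ± 3.50 and 16.5% ± 2.53, with ranges of 7.53% to 17.7% and 13.0% to 19.0% that overlapped. The overlap came from naïve mouse 5, at 17.7%, while the other naïve mice held 7.53% to 11.6%. No test was run on the shares. Together the high-affinity subunits came to 71.6% ± 9.98 of the sum in naïve and 71.9% ± 5.79 in withdrawn mice. The remaining share was split in naïve mice into 14.4% ± 6.56 for Grik3, 10.6% ± 2.08 for Grik2 and 3.39% ± 2.59 for Grik1, and in withdrawn mice into 12.1% ± 3.79, 13.9% ± 5.09 and 2.13% ± 1.74. These shares depend on the exon length assigned to each gene and describe RNA, not assembled receptors.

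**Figure D3:**
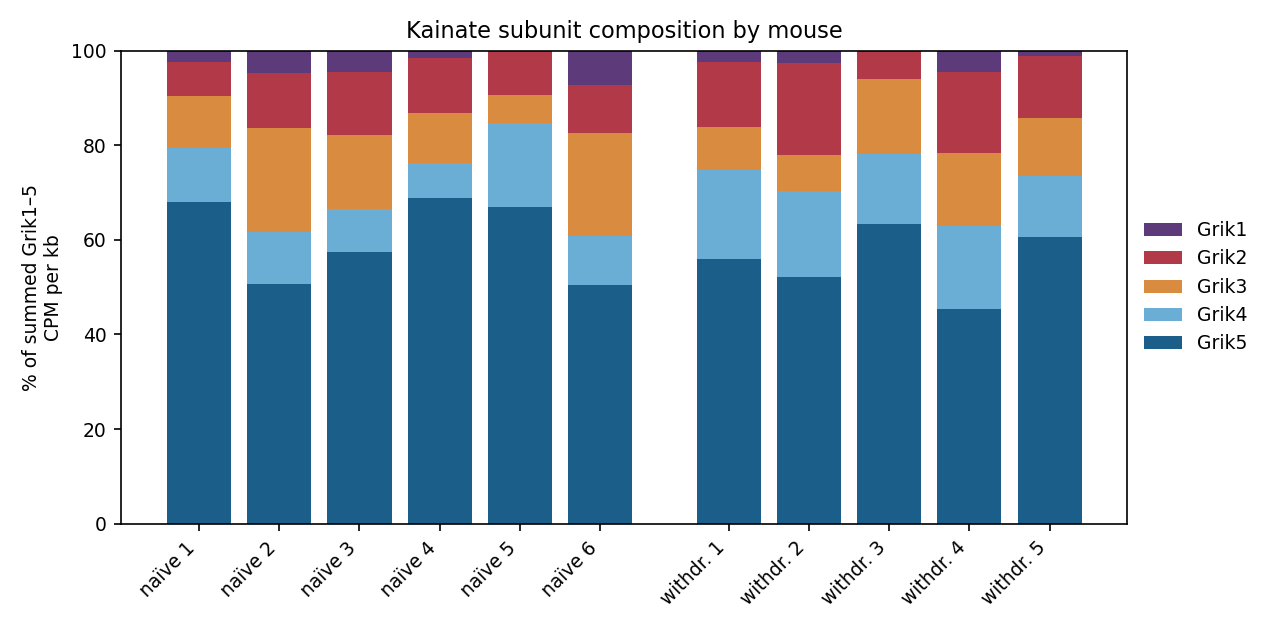
Share of each kainate subunit gene in the summed Grik1 to Grik5 level (y axis, % of CPM per kb, bars add up to 100%) in each of the 6 naïve and 5 withdrawn mice. Grik5 (dark blue) is the largest share in every mouse, from 45.3% to 68.8%, and Grik1 (purple, top) is at or near 0 in naïve mouse 5 and withdrawn mouse 3.

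The kainate family as a whole summed to less than the NMDA receptor genes and far less than the AMPA receptor genes. The 5 Grik genes summed to 30.2 ± 6.20 CPM per kb in naïve and 26.1 ± 6.62 in withdrawn mice. The AMPA receptor genes Gria1 to Gria4 summed to 153 ± 24.4 and 133 ± 17.7 CPM per kb, and the NMDA receptor genes to 52.6 ± 14.8 and 51.0 ± 9.97. The Grik genes thus made up 12.8% ± 0.904 of the ionotropic sum in naïve mice (SD, n = 6) and 12.4% ± 2.57 in withdrawn mice (SD, n = 5). Of the 11 AMPA and NMDA receptor genes, 9 were tested and 0 passed the thresholds, with a median log2 fold change of -0.23.

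The auxiliary genes were expressed at levels close to those of Grik2, Grik3 and Grik4. Neto1 (ENSMUSG00000050321, chr18:86394952-86506718, plus strand) ran from 15.6 through 23.8 to 43.9 CPM in naïve mice, and withdrawn mice 1 to 5 held 33.4, 21.4, 14.9, 29.0 and 22.0 CPM. Apart from withdrawn mouse 3, just under the lowest naïve mouse, the withdrawn values were inside the naïve range. Its log2 fold change was -0.09 (SE 0.33, 95% interval -0.79 to 0.61, adjusted p = 0.979, edgeR) and turned to 0.13 without naïve mouse 2. An antisense gene shares 2.62% of the exon bases of Neto1, and reads there could not be assigned to a strand.

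Neto2 (ENSMUSG00000036902, chr8:85636588-85700924, minus strand), which binds kainate receptors and also the chloride transporter KCC2, was far more uneven. Naïve mice ran from 7.52 through 33.6 to 37.8 CPM, and withdrawn mice 1 to 5 held 23.3, 2.57, 21.6, 47.1 and 27.0 CPM. The withdrawn group held both the lowest and the highest mouse of all 11. The log2 fold change was -0.15 (SE 0.56, 95% interval -1.35 to 1.06, adjusted p = 0.980, edgeR), and it turned to 0.13 without withdrawn mouse 2, whose 2.57 CPM came from 23 reads. Without the 3 mice whose labels disagree, which leaves withdrawn mice 1 and 2, the log2 fold change was -1.08 (SE 0.82, adjusted p = 0.840, edgeR). Neto2 made up 56.5% ± 14.3 of the summed Neto1 and Neto2 level per kb in naïve mice (SD, n = 6) and 52.1% ± 22.6 in withdrawn mice (SD, n = 5), and its share ran from 39.6% to 73.8% in naïve and from 14.1% to 68.9% in withdrawn mice.

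Grid1 (ENSMUSG00000041078, chr14:34820108-35583379, plus strand), the delta receptor gene, ran from 4.62 through 11.9 to 20.6 CPM in naïve mice. Withdrawn mice 1 to 5 held 14.3, 9.07, 16.6, 20.5 and 9.90 CPM, all inside the naïve range. The log2 fold change of 0.23 (SE 0.45, 95% interval -0.73 to 1.20, adjusted p = 0.960, edgeR) changed sign, to -0.08, without the 3 mice whose labels disagree.

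Partner genes of these receptors were read in the same fit. The list of 27 held scaffolds, trafficking proteins, RNA editing enzymes, cerebellins, C1q-like proteins and neurexins, of which 23 were tested, 3 were below the filter (C1ql1 and C1ql2 among them) and Klhl17 was not matched to an identifier. None of the 23 passed the thresholds in either direction with edgeR, and 1 of the 23 had an unadjusted p under 0.05, where 7.22% of all tested genes did. That gene was Cask, a scaffold of synaptic membranes, with 102 ± 30.3 CPM in naïve and 72.9 ± 7.59 CPM in withdrawn mice (log2 fold change -0.48, SE 0.21, adjusted p = 0.644, edgeR). Over the 23 genes, 8 fold changes were above 0 and 15 below, with a median of -0.04 on the log2 scale.

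The partner genes were ordered by p-value to name those after Cask. Cul3, part of a ubiquitin ligase, had a log2 fold change of -0.49 (adjusted p = 0.722, edgeR), and Grip1 and Grip2, PDZ scaffolds of glutamate receptors, had 0.68 and 0.58 (adjusted p = 0.780 and 0.844). Adarb2, which belongs to the family of RNA editing enzymes and also stands on the list of GABAergic markers, had 1.01 (adjusted p = 0.805), and the editing enzyme Adar had 0.31 (adjusted p = 0.864). For the delta receptor ligands, Cbln2 was the most abundant cerebellin, with 130 ± 47.3 CPM in naïve and 106 ± 62.5 CPM in withdrawn mice, while Cbln1 was at 2.49 ± 1.57 and 2.18 ± 1.34 CPM.

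**Figure D4:**
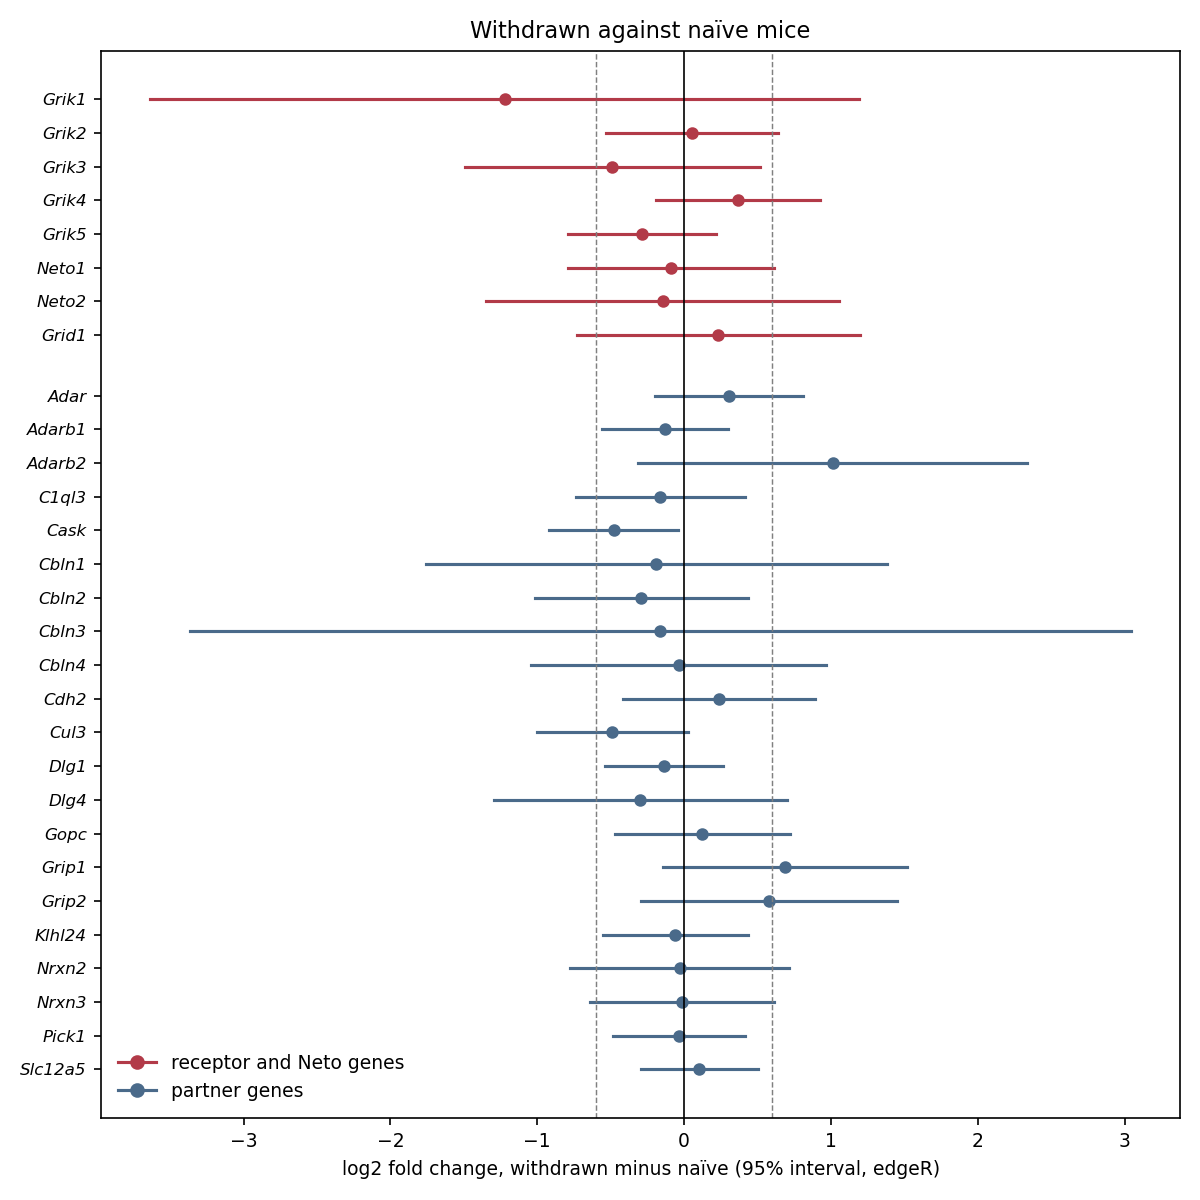
Log2 fold change of withdrawn against naïve mice (x axis) with its 95% interval from edgeR for the 8 receptor and Neto genes (red) and 21 of the 23 tested partner genes (blue). Dashed lines mark a log2 fold change of 0.6 in either direction. The interval of each red gene includes 0, and Grik1 has the widest of these, from -3.64 to 1.19.

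The low values of these genes gathered in a few mice. Naïve mouse 5 was the lowest naïve mouse for 6 of the 8 genes, and it was the lowest naïve mouse, or tied for lowest, for 45.8% of all tested genes. Withdrawn mouse 2 was the lowest of its group for 5 of the 8, and lowest or tied for lowest for 34.04% of all tested genes. Withdrawn mouse 3 was mixed, lowest for Grik1, Grik2 and Neto1 and highest of its group for Grik3, Grik4 and Grik5. Withdrawn mouse 4 was highest of its group for Grik1, Grik2, Neto2 and Grid1, and naïve mouse 6 of its own for Grik1, Grik3, Grik4 and Grid1.

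Deviations from the group means were compared between the genes as a description over the 11 mice, which share depth and library quality. Of the 28 gene pairs, 22 had a Pearson correlation above 0, with a median of 0.45, where the median correlation of these genes with all coding genes was 0.11. The coding genes were not matched to these genes for level or cell type. No share of pairs above 0 over all genes stands beside the 22, so a trait of this family cannot be read from it. Grik1 and Grik2 had the highest value (r = 0.87, Spearman's rho = 0.70), which fell to 0.45 without naïve mouse 5 and withdrawn mouse 3. Neto2 and Grik3 followed (r = 0.79, rho = 0.61) and fell to 0.38 without naïve mouse 5 and withdrawn mouse 2. Grid1 and Grik3 had r = 0.73 (rho = 0.78), and 0.74 without naïve mice 1 and 5. Grik5 and Grik3 (r = 0.63, rho = 0.45) fell to 0.43 without withdrawn mice 2 and 3. The 2 mice left out of a pair were those farthest from the median of 1 of its genes. These genes were Grik2, Neto2, Grid1 and Grik5, in the order of the pairs. Different mice were thus left out, and the changes cannot be compared between pairs. Grik4 and Grik2 had the lowest value, r = -0.24.

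Over 13917 coding genes, the gene with the most similar deviations was searched for each of the 8. These were Fhod1 for Grik1 (r = 0.95), Ankrd55 for Grik2 (0.95), 1810013L24Rik for Grik3 (0.95), Bmpr1b for Grik4 (0.90), Spag8 for Grik5 (0.95), Atp13a1 for Neto1 (0.90), Nde1 for Neto2 (0.97) and Bcl2l2 for Grid1 (0.97). The values are Pearson correlations over 11 mice and are the highest among many, so they are given only as a description. Fhod1, Ankrd55 and Spag8 averaged 1.44, 1.66 and 2.08 CPM, so their deviations rest on few reads. No kainate or delta receptor gene was the nearest gene of another.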

How the data were processed

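RNA was obtained from fluorescence-sorted mPFC CRF1+ neurons of single mice and amplified by PCR from a small input (SMARTseq HT). The authors trimmed reads, aligned them to GRCm38 with STAR and made gene-level raw counts with HTSeq, which they deposited for each mouse. The kit does not mark strand, and the limit of 3 counts set for a count of 0 covers counting error only, while the intervals of fold changes include the spread between mice. Non-gene tally rows were left out of library sizes. The 8 genes and all lists were chosen with earlier results of these data known, and the named partner genes are the 6 with the smallest p-values. Cbln1, Cbln2, C1ql1 and C1ql2 are also named, chosen after their values were seen, and some partner genes are not reported here. Counts of 53465 genes, 53360 with a GENCODE M21 symbol, were filtered with filterByExpr (minimum count 10, total 15) and tested with edgeR 4.0.16 (TMM, quasi-likelihood) in R 4.3.3, with Benjamini-Hochberg adjustment over 17093 genes. CPM are TMM-scaled. Log2 CPM for SDs and permutation used a prior count of 2. DESeq2 1.42.0, limma 3.58.1, other scalings, filters, covariates, a replicate block and leaving out each mouse were alternatives. Methods were tested on simulated data. No 2 libraries agreed within sampling noise.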

Additional observations from a re-analysis of the deposited data

Results flagged for a closer look

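In 3 cases 1 mouse lay far from the rest of its group on the log2 CPM scale by Dixon's test. These were Grik1 in naïve mouse 5, at -2.80 (0 reads), Grik4 in naïve mouse 4, at 3.73 (226 reads), and Neto2 in withdrawn mouse 2, at 1.44 (23 reads). Chance flags about 1 in 20 groups, which over the 16 groups examined is 0.8.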

How the results depend on the processing

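None of the 8 genes was called under any alternative fit, but the sign of the small changes was not fixed. Grik2 had a log2 fold change of -0.18 with limma voom, -0.0177 with genes detected as a covariate, -0.11 with the share of reads outside exons as a covariate, and -0.0071 without the 3 mice whose labels disagree. Leaving out those mice keeps only withdrawn mice 1 and 2. Mouse 2 was the lowest of its group for Grik3, Grik4, Grik5, Neto2 and Grid1. In that fit Neto1 was at 0.0477, Grid1 at -0.0799, Grik3 at -1.43, Neto2 at -1.08 and Grik5 at -0.71. With voom Grid1 was at -0.0022 and Grik1 at -2.63. Leaving out each mouse in turn gave -0.0675 to 0.18 for Grik2, -0.25 to 0.13 for Neto1, -0.52 to 0.13 for Neto2 and, without a change of sign, -1.77 to -0.80 for Grik1, -0.77 to -0.27 for Grik3, 0.27 to 0.45 for Grik4, -0.48 to -0.15 for Grik5 and 0.06 to 0.46 for Grid1. The cause of these shifts was not tested. Of the partner genes, 1 passed at an unadjusted p under 0.05. Per kb of the longest transcript, the naïve levels were 2.10 for Grik1, 4.55 for Grik2 and 22.9 CPM per kb for Grik5.

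Over all genes, edgeR called 1, DESeq2 362, edgeR without a filter 137, with at least 10 counts in every mouse 30 (Grik1 could not be tested there), with genes detected as a covariate 26, and without withdrawn mouse 2 193. With the replicate number as a block (replicate block), 0 genes were called, and Grik1 was at -0.31 and Grid1 at 0.57. Same-numbered mice correlated at -0.20 to 0.18 and 1 of 5 numbers matched best with itself. The numbers follow the order of the samples within each group, so neither this check nor the block can show a pairing or a batch. Grik1 rests on 0 to 281 reads a mouse.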
